A study of Mus musculus with 9 samples.

Results

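The genes described here are 10 genes of the striated muscle sarcomere, Actc1, Acta1, Tnnt1, Tnnt2, Tnnt3, Tnnc1, Tnni1, Myl1, Myl4 and Myl7, which were taken by symbol from a table of 54532 mouse genes. They were chosen by their counts in these same libraries and the differences between the groups, so their levels are given as a description, with no test of their own. The data are bulk mRNA sequencing of adipose-derived stem cells (ASCs) from C57BL/6 mice, that is, adherent stromal cells grown out of digested fat and passaged in a serum medium with LIF and FGF. The study asked how ASCs of different fat depots differ. Sub-ASCs came from subcutaneous fat, Ab-ASCs from abdominal fat and PVASCs from the perivascular fat around arteries, with 3 libraries per group and no treatment or genetic change in any of them. The labels do not say whether the 3 libraries of a group are separate mice or cultures, so the errors and p-values measure only the spread between libraries, which may be technical.

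The sarcomere is the contractile unit of skeletal muscle and the heart, in which thin filaments of actin slide past thick filaments of myosin. On the thin filament, troponin C binds calcium, troponin I holds contraction back in its absence and troponin T ties the complex to tropomyosin. The light chains sit on the neck of the myosin heads, and most of these proteins have separate forms for fast skeletal, slow skeletal and cardiac fibres. Stromal cells are not striated muscle and use smooth muscle and non-muscle forms of actin and myosin for their stress fibres.

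Between 20524173 and 29881036 reads were counted per library. A count of 3 reads in a library, taken here as the smallest measurable amount, was at most 0.146 CPM, the usual library-size scale of counts per gene, before the TMM scaling that is applied to CPM values below. Each library was more like the other libraries of its group than like any other library, with a lowest mean r of 0.988 across genes within a group (for Ab-ASC replicate 1) and a highest r of 0.956 between groups. The listed ASC markers Ly6a, Thy1, Eng, Pdgfra and Cd44 were present in all 9 libraries, although Ly6a (Sca1) had a mean of 2049 CPM in Sub-ASCs, 111 CPM in PVASCs and 21.8 CPM in Ab-ASCs. Markers of other cell types also varied. The summed level of 3 endothelial markers was 422 to 425 CPM in PVASCs, 103 to 110 CPM in Sub-ASCs and 41.1 to 42.3 CPM in Ab-ASCs, and that of 4 mesothelial markers was 73.3 to 78.3 CPM in Ab-ASCs, 15.3 to 15.8 CPM in PVASCs and 0.458 to 1.06 CPM in Sub-ASCs. Their part in the results was not tested. In bulk libraries, fewer cells that express a gene and less RNA per cell cannot be told apart.

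Together the 10 genes had 192 to 254 reads per library in Sub-ASCs, 620 to 738 in Ab-ASCs and 640 to 665 in PVASCs. The summed level was 8.24 to 9.69 CPM in Sub-ASCs, 29.6 to 33.3 CPM in Ab-ASCs and 19.8 to 22.5 CPM in PVASCs, without overlap. Acta1 alone held 72.3% to 74.7% of these reads in Ab-ASCs and 60.6% to 67.5% in PVASCs, but 11.7% to 12.6% in Sub-ASCs. The other 9 genes did not share the order of the sum. All 10 had reads in at least 1 group, and 9 had enough reads to be kept by the low-count filter used for testing, with Actc1 left out. The CPM ranges of 3 libraries did not overlap between PVASCs and Sub-ASCs for 3 genes that were higher in PVASCs (24.0% of all genes with reads) and 3 that were lower (24.9%), with 49.0% of all genes in either direction. Between PVASCs and Ab-ASCs, 1 gene was higher (18.5%) and 4 were lower (20.4%) in PVASCs, with 38.9% in either direction, and between Ab-ASCs and Sub-ASCs, 5 were higher (22.6%) and 3 were lower (25.4%) in Ab-ASCs, with 47.9% in either direction. The percentages are the background over 30797 genes, and since these contrasts were known when the 10 genes were chosen, nothing is read from the counts.

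**Figure D1:**
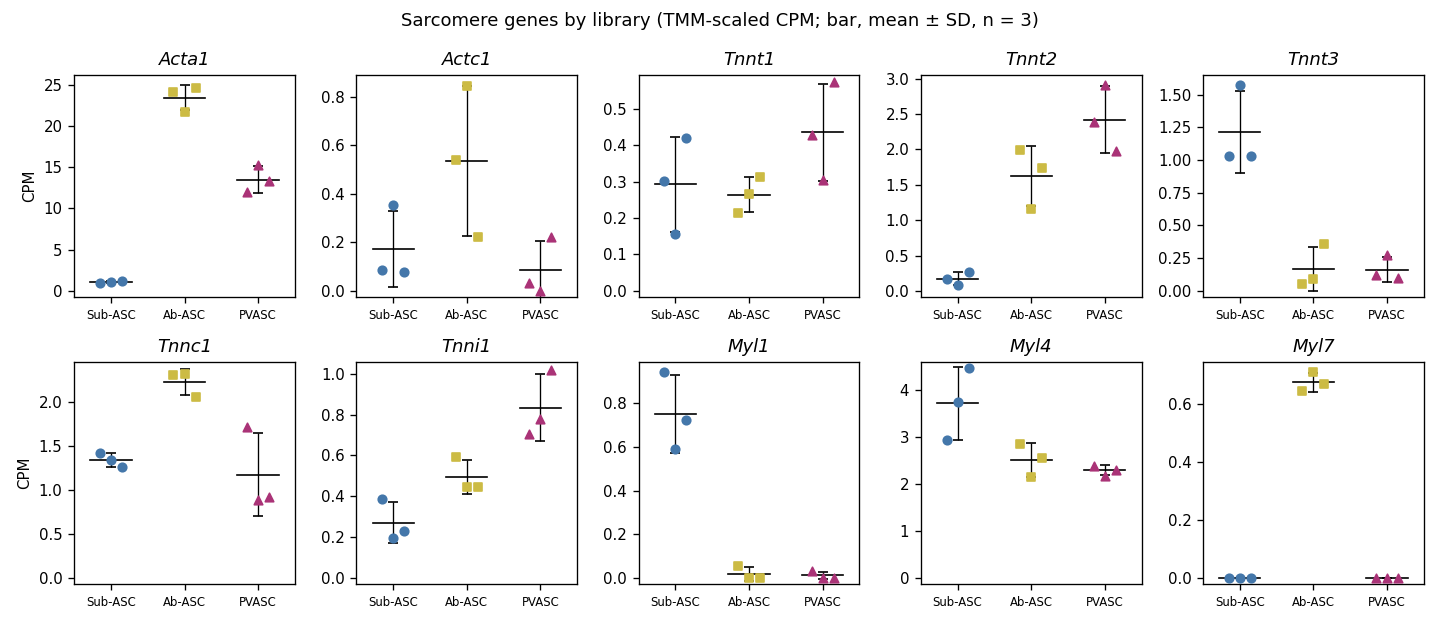
CPM after TMM scaling (y axis, from 0 and with its own scale in each panel) of the 10 sarcomere genes in the 3 libraries of Sub-ASCs, Ab-ASCs and PVASCs (x axis); points are libraries, lines are means and bars are SD over 3 libraries. Acta1 and Tnnt2 are low in Sub-ASCs, Tnnt3 and Myl1 are high only there, and Myl7 has reads only in Ab-ASCs (12 to 16 per library).

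Upstream sequence is shown for Acta1 and Tnnt2, both low in Sub-ASCs, and for Myl7, counted only in Ab-ASCs. Each window holds the 250 bases before the RefSeq start on GRCm38.p6, written 5′ to 3′ on the strand of the gene. Each shares 0 bases with the GENCODE M21 exons of its own gene. The positions are chr8:123894776-123895025 on the minus strand for Acta1, chr11:5898783-5899032 on the minus strand for Myl7 and chr1:135836084-135836333 on the plus strand for Tnnt2. Capitals mark CArG boxes, the site bound by serum response factor (SRF), CATTCC, the core bound by TEAD factors, and TATAAA, each searched on both strands.
Acta1: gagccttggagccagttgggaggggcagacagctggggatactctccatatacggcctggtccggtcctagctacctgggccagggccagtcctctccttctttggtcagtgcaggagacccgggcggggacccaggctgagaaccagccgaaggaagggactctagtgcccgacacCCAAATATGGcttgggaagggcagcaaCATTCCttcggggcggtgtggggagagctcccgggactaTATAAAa
Myl7: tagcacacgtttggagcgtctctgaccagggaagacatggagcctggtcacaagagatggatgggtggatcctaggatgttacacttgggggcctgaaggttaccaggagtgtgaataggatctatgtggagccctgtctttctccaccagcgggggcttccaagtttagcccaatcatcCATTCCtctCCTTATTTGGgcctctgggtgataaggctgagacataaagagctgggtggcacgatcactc
Tnnt2: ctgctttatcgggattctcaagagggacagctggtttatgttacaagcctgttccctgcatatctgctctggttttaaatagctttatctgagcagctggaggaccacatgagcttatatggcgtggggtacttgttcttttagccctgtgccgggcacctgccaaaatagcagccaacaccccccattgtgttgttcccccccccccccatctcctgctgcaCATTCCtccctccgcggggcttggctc

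The CArG box of Acta1 is CCAAATATGG at positions -73 to -64 from the start, and that of Myl7 is CCTTATTTGG at -61 to -52. Actc1 has 1 as well, CCAAATAAGG at -47 to -38. RefSeq windows were found for 9 of the 10 genes, Tnnt3 being the exception, and 3 of these 9 held a CArG box, against 1.47% of 32851 promoter windows of the same length. CATTCC was found upstream of 5 of the 9 genes, Acta1, Myl1, Myl7, Tnnc1 and Tnnt2 (12.6% of all windows), and TATAAA upstream of 3 (12.4%). CANNTG, the E-box core bound by myogenic factors, was upstream of 7 of them (66.2% of all windows), and a MEF2 site upstream of 0 of them (2.92%). Tnni1 and Tnnt2 had an additional window each, and any window of a gene was counted. A match is a run of letters and not evidence of binding, and the genes with a CArG box differed in their levels. Acta1 was high in Ab-ASCs and PVASCs, Myl7 had reads only in Ab-ASCs, and Actc1 had at most 9 reads in any Sub-ASC or PVASC library and 5 to 19 in Ab-ASCs.

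Acta1 encodes skeletal muscle α-actin, the thin filament actin of adult skeletal muscle. Its place on GRCm38 is chromosome 8, 123891769 to 123894751, minus strand. In Sub-ASCs 1 to 3 it had 23, 27 and 32 reads, in Ab-ASCs 448, 487 and 551, and in PVASCs 392, 449 and 417. The 3 groups did not overlap, with Ab-ASCs highest and Sub-ASCs lowest. Its mean level was 23.4 ± 1.56 CPM in Ab-ASCs, 13.5 ± 1.63 CPM in PVASCs and 1.09 ± 0.119 CPM in Sub-ASCs (SD, n = 3). Ab-ASCs were thus 21.5-fold above Sub-ASCs (fitted log2 difference 4.41, SE 0.14), and PVASCs were 12.4-fold above them (3.62, SE 0.14). PVASCs were below Ab-ASCs, with a fitted log2 difference of -0.80 (SE 0.10). Per gene length, in FPKM, that is CPM without TMM scaling per kilobase of listed gene length, Acta1 stood above 88.8% of the 30797 genes with reads in Ab-ASCs, 84.0% in PVASCs and 58.2% in Sub-ASCs.

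Acta1 was nonetheless a minor actin in each group. Acta2, the α-actin of smooth muscle, had 1258 to 1412 reads in Sub-ASCs, 90372 to 95295 in Ab-ASCs and 76641 to 80267 in PVASCs. The reads of Acta1 were 1.8% to 2.3% of those of Acta2 in Sub-ASCs, 0.477% to 0.578% in Ab-ASCs and 0.488% to 0.586% in PVASCs. The share was therefore higher in the Sub-ASCs, which had the fewest reads of both genes. Among the FPKM of 6 actin genes, Acta1 took 0.127% to 0.153% in Sub-ASCs, 0.236% to 0.273% in Ab-ASCs and 0.214% to 0.261% in PVASCs. Actin genes are alike in sequence. Of the 1534 runs of 50 bases in the Acta1 transcripts, 0 occurred exactly in Acta2, Actc1 or Actg2, while 28 occurred in Actb and 10 in Actg1. Whether reads of the abundant actins with sequencing errors were counted as Acta1 was not tested.

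Actc1 encodes cardiac α-actin (chromosome 2, 114047282 to 114053548, minus strand). It had 2, 9 and 2 reads in Sub-ASCs, 10, 19 and 5 in Ab-ASCs and 1, 0 and 7 in PVASCs. The libraries of 1 group differed here as much as the groups did. Ab-ASCs and PVASCs alone did not overlap in CPM, by a margin below rounding, since their nearest libraries were both at 0.223 CPM. Of the 8 reads in PVASCs, 7 were in replicate 3, so no ratio is given. The limit of 3 reads and the 95% intervals of ratios given for other genes cover counting error only, because reads are not independent molecules.

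The 3 troponin T genes each had another pattern. Tnnt2, the cardiac troponin T gene (chromosome 1, 135836354 to 135852260, plus strand), had 4, 2 and 7 reads in Sub-ASCs, 37, 26 and 39 in Ab-ASCs and 78, 86 and 62 in PVASCs. All Sub-ASC libraries were below all others, whereas Ab-ASCs and PVASCs overlapped narrowly in CPM (1.16 to 1.99 and 1.97 to 2.91). The mean was 2.42 ± 0.473 CPM in PVASCs and 1.63 ± 0.427 CPM in Ab-ASCs against 0.172 ± 0.0942 CPM in Sub-ASCs (SD, n = 3), which is 14.1-fold and 9.44-fold.

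Tnnt3, the fast skeletal troponin T gene (chromosome 7, 142498836 to 142516009, plus strand), went the other way. It had 24, 40 and 27 reads in Sub-ASCs, 1, 2 and 8 in Ab-ASCs and 4, 8 and 3 in PVASCs. Sub-ASCs, with a mean of 1.21 ± 0.313 CPM (SD, n = 3), did not overlap with the others, while Ab-ASCs (0.166 CPM) and PVASCs (0.163 CPM) did. The fitted log2 difference of Ab-ASCs from Sub-ASCs, -2.78 (SE 0.51), was -3.97 without Ab-ASC replicate 3. Tnnt1, the slow skeletal form (chromosome 7, 4504570 to 4516382, minus strand), had 7, 4 and 11 reads in Sub-ASCs, 4, 6 and 7 in Ab-ASCs and 14, 9 and 18 in PVASCs. All groups overlapped in CPM. By library totals PVASCs had 1.66 times the level of Sub-ASCs, with a 95% counting interval of 0.969 to 2.93, and 1.91 times that of Ab-ASCs, with an interval of 1.06 to 3.59.

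Tnnc1 encodes the troponin C shared by slow skeletal muscle and the heart and lies on the plus strand of chromosome 14 (31208312 to 31211729). It had 33, 34 and 33 reads in Sub-ASCs, 43, 52 and 46 in Ab-ASCs and 56, 26 and 29 in PVASCs. Ab-ASCs were above all other libraries, and PVASC replicate 1 stood apart from the other PVASC libraries. The means were 2.22 ± 0.149 CPM in Ab-ASCs, 1.34 ± 0.0792 CPM in Sub-ASCs and 1.17 ± 0.468 CPM in PVASCs (SD, n = 3). The fitted log2 difference of PVASCs from Sub-ASCs moved from -0.18 to -0.55 without PVASC replicate 1, and that from Ab-ASCs moved from -0.91 to -1.30. The gene lies within Nisch on the opposite strand, with which it shares 0 exon bases. The use of strand in counting is not given in the sources used here, so unspliced Nisch reads could not be told apart from Tnnc1 reads.

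Tnni1 encodes the inhibitory troponin of slow skeletal muscle and of fetal heart (chromosome 1, 135779434 to 135810989, plus strand). It had 9, 5 and 6 reads in Sub-ASCs, 11, 10 and 10 in Ab-ASCs and 23, 23 and 32 in PVASCs. The groups did not overlap in CPM, in the order PVASCs (0.833 ± 0.164), Ab-ASCs (0.494 ± 0.0839) and Sub-ASCs (0.271 ± 0.102; SD, n = 3). It was the 1 gene of the 10 whose PVASC libraries were all above those of both other groups. PVASCs were 3.08-fold above Sub-ASCs (fitted log2 difference 1.62, SE 0.34) and 1.69-fold above Ab-ASCs (0.76, SE 0.32). The nearest PVASC and Ab-ASC libraries were at 0.703 and 0.591 CPM.

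The light chain genes fell into different groups again. Myl1, the essential light chain of fast skeletal muscle (chromosome 1, 66924295 to 66945404, minus strand), had 22, 15 and 19 reads in Sub-ASCs, 1, 0 and 0 in Ab-ASCs and 1, 0 and 0 in PVASCs. Only Sub-ASC libraries were above 3 reads. With 1 read in all against 56, the ratio of Sub-ASCs by library totals, without TMM scaling, was 49.7 to Ab-ASCs and 62.7 to PVASCs, and the 95% intervals began at 8.56 and 10.8. Of the runs of 50 bases in the Myl1 transcripts, 11.7% also occurred in the pseudogene Mylf-ps, and how such reads were counted is not given in the sources used here.

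Myl7, the regulatory light chain of the atria (chromosome 11, 5896637 to 5898782, minus strand), had 12, 16 and 15 reads in Ab-ASCs and 0 in every Sub-ASC and PVASC library. Taking 3 reads per library as the limit, and by library totals, Ab-ASCs were at least 5.35-fold above Sub-ASCs and at least 6.00-fold above PVASCs. It was the 1 gene of the 10 that was counted in a single group. Myl4, the essential light chain of the atria and of embryonic muscle (chromosome 11, 104550663 to 104595753, plus strand), was present in all libraries. It had 68, 95 and 117 reads in Sub-ASCs, 53, 48 and 57 in Ab-ASCs and 78, 64 and 72 in PVASCs. Sub-ASCs were highest at 3.70 ± 0.771 CPM (SD, n = 3), just without overlap, and Ab-ASCs (2.51 ± 0.357 CPM) and PVASCs (2.28 ± 0.108 CPM) overlapped.

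By mean FPKM over all libraries, Acta1 (8.17) came first, followed by Tnnc1 (1.49), Myl4 (0.608), Myl7 (0.356), Tnnt3 (0.320), Tnnt2 (0.186), Actc1 (0.157), Tnnt1 (0.153), Tnni1 (0.151) and Myl1 (0.123). This order held in no single group. In Sub-ASCs, Tnnc1 led with 1.26 ± 0.0767 FPKM, and Myl4 (0.782 ± 0.161), Tnnt3 (0.749 ± 0.195) and Acta1 (0.694 ± 0.0742) followed within their SDs of each other. In Ab-ASCs, Acta1 at 14.2 ± 0.812 FPKM was followed by Tnnc1 at 1.99 ± 0.132 and Myl7 at 1.07 ± 0.0788. In PVASCs, Acta1 at 9.59 ± 1.12 FPKM was followed by Tnnc1 at 1.23 ± 0.495, Myl4 at 0.537 ± 0.0273 and Tnnt2 at 0.341 ± 0.0654 (SD, n = 3). The median over the 10 genes was 0.242 FPKM in Sub-ASCs, 0.252 in Ab-ASCs and 0.234 in PVASCs, while that of 10 cytoskeletal genes was 51.2, 203 and 176 FPKM.

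**Figure D2:**
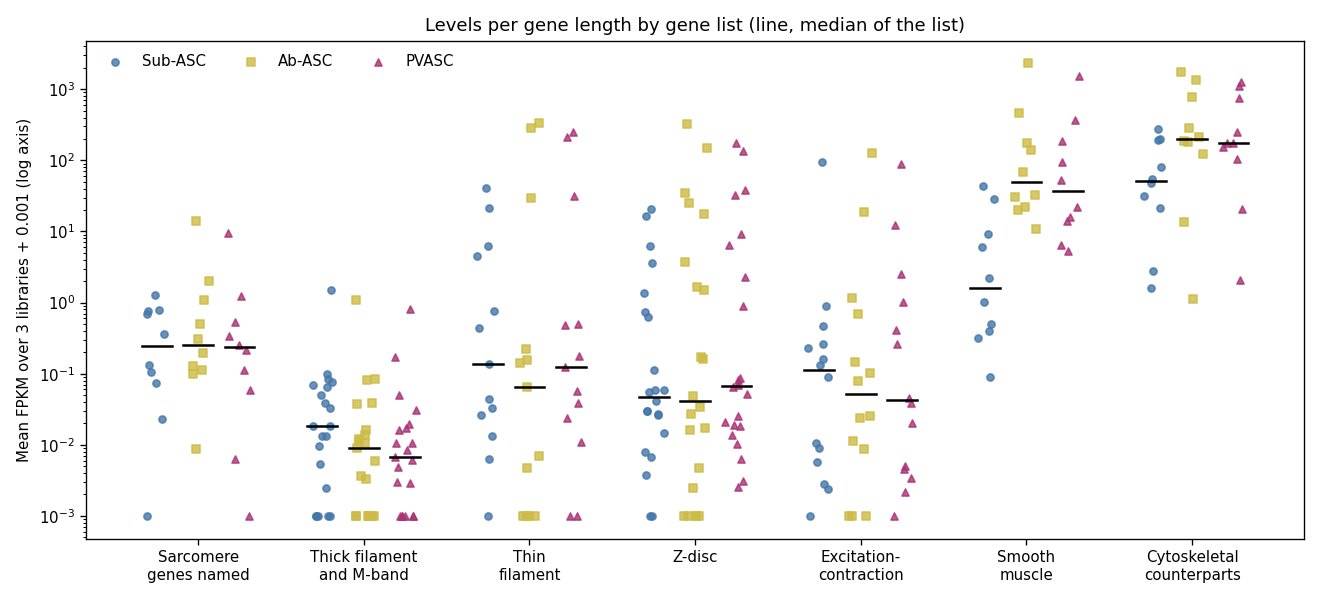
Mean FPKM over 3 libraries plus 0.001 (y axis, log scale) of each gene in 7 gene lists (x axis), by group; points are genes, black lines are medians of a list, and points at 0.001 have no reads. The 10 sarcomere genes and the other filament lists lie mostly below 1 FPKM, whereas the medians of smooth muscle genes are 50.1 FPKM in Ab-ASCs, 37.0 in PVASCs and 1.60 in Sub-ASCs.

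To place the 10 genes among their partners, 56 other genes of the sarcomere were counted in a single fit of all 16526 genes that passed the filter, with edgeR's quasi-likelihood test and Benjamini-Hochberg adjustment at 0.05. Of these 56, 14 had at most 3 reads in any library, and 3 of those, Myh4, Myh6 and Tnnc2, had none. Only 22 passed the filter. In PVASCs against Sub-ASCs, 12 of the 22 were higher and 5 lower, where 34.7% and 35.7% of all tested genes were, 70.4% together. In PVASCs against Ab-ASCs, 6 were higher and 9 lower (24.7% and 32.1% of all tested genes, 56.9% together). In Ab-ASCs against Sub-ASCs, 13 were higher and 5 lower (37.0% and 38.3%, 75.3% together). For the 22 genes the log2 fold changes had medians of 0.67, -0.24 and 1.13 in these pairs, where that of all tested genes was -0.01, -0.06 and -0.03. The pairs share groups and are not independent.

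Most thick filament genes had few or no reads. Of 9 striated myosin heavy chain genes, 1 passed the filter, Myh3, the embryonic skeletal form. It had 16, 15 and 15 reads in Sub-ASCs, 3, 0 and 0 in Ab-ASCs and 0, 1 and 0 in PVASCs. It was lower in PVASCs (adjusted p = 9.9e-05) and in Ab-ASCs (adjusted p = 0.00077) than in Sub-ASCs. Myh3 passed the filter through Sub-ASCs alone, in a list chosen with earlier results known, so these p-values are given as a description only. Of the heavy chains of adult muscle, Myh4 (fast skeletal) and Myh6 (atrial) had 0 reads, and Myh2 (fast skeletal) and Myh7 (slow and ventricular) had 1 read each in all libraries together. Myh1, another fast skeletal form, had 7, 5 and 6 reads in Sub-ASCs, 2, 1 and 1 in Ab-ASCs and 0, 2 and 0 in PVASCs, and was removed by the filter. Mylpf, the fast skeletal regulatory light chain, fell from 1.64 ± 0.147 CPM in Sub-ASCs to 0.778 ± 0.0681 CPM in PVASCs (SD, n = 3, adjusted p = 0.0019), and Ttn, the giant spring of the sarcomere, fell from 1.48 ± 0.162 CPM to 0.788 ± 0.0724 CPM (adjusted p = 0.0052). Myom1, an M-band crosslinker, was higher in PVASCs at 1.63 ± 0.122 CPM than in Sub-ASCs at 0.729 ± 0.225 CPM (adjusted p = 0.0036). The remaining calls at the margin, Mylpf and Myom1 in PVASCs against Ab-ASCs and Myom2 in Ab-ASCs against Sub-ASCs, were lost when single libraries were left out.

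On the thin filament, 8 of 13 genes were tested, and the largest levels were those of tropomyosins that smooth muscle and stromal cells also use. Tpm2 rose from 13.4 ± 1.10 CPM in Sub-ASCs to 1040 ± 111 CPM in Ab-ASCs and 560 ± 20.3 CPM in PVASCs, and Tpm1 from 268 ± 6.74 CPM to 1957 ± 142 CPM and 1503 ± 32.3 CPM (SD, n = 3). The fitted log2 differences from Sub-ASCs were 6.27 and 5.38 for Tpm2 and 2.87 and 2.49 for Tpm1, with adjusted p of at most 1.3e-12. Other genes of the list differed in direction. Tmod1, which caps the pointed ends of actin filaments, was at 25.2 ± 1.93 CPM in Sub-ASCs, 1.79 ± 0.378 CPM in PVASCs and 0.651 ± 0.147 CPM in Ab-ASCs, and each pair of groups differed (adjusted p of at most 0.00034). Tnni3, the cardiac troponin I gene, had 54, 24 and 41 reads in Sub-ASCs, 2, 7 and 11 in Ab-ASCs and 10, 4 and 8 in PVASCs, and it was lower in both than in Sub-ASCs (adjusted p = 0.00065 and 0.00016). Nebl, the cardiac relative of nebulin, had 20 to 30 reads in PVASCs and at most 3 in any other library. It was higher in PVASCs than in Sub-ASCs (adjusted p = 9.9e-05) and Ab-ASCs (adjusted p = 0.00019). Nebl passed the filter through PVASCs alone. Tnni3 and Nebl were named with their values known, so their p-values are given as a description only.

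The Z-disc list, whose proteins anchor the thin filaments, was more uniform against Sub-ASCs than the thick and thin filament lists. All 9 tested genes of 22 were higher in Ab-ASCs than in Sub-ASCs (37.0% of all tested genes). In PVASCs 7 were higher than in Sub-ASCs (34.7%), with none lower. PVASCs against Ab-ASCs gave 2 higher and 5 lower (24.7% and 32.1%). The list was chosen with earlier results of these data known, so these counts are a description. The most abundant were Flnc (filamin C), Cryab (a chaperone of desmin), Pdlim5 and Ankrd1, all of which are also present outside striated muscle. Ankrd1 was at 6.44 ± 0.382 CPM in Sub-ASCs, 280 ± 19.2 CPM in Ab-ASCs and 285 ± 2.12 CPM in PVASCs (SD, n = 3), and Des, the muscle intermediate filament, at 5.26 ± 0.684 CPM, 69.9 ± 5.48 CPM and 22.4 ± 0.477 CPM. Actn2, the α-actinin that defines the striated Z-disc, had at most 8 reads in any library and was not tested, and Tcap and Myoz2, which bind titin and α-actinin there, had at most 4. Not all muscle genes of the list were this low. Actn3, the skeletal α-actinin, had 47 to 66 reads per library in Sub-ASCs, 85 to 112 in Ab-ASCs and 67 to 90 in PVASCs. Ldb3 had 8 to 23, 209 to 253 and 355 to 416.

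**Figure D3:**
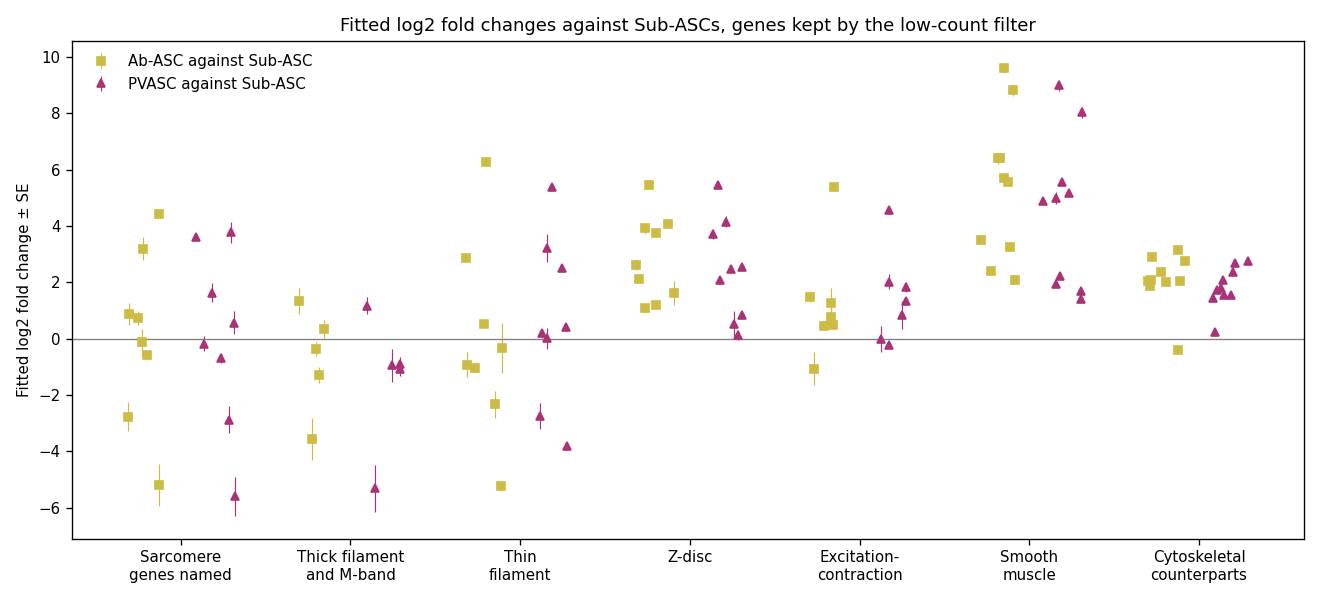
Fitted log2 fold change against Sub-ASCs with its SE (y axis) of each gene kept by the low-count filter, in 7 gene lists (x axis), for Ab-ASCs and PVASCs; Myl7, with no reads in Sub-ASCs, and Actc1, removed by the filter, are not drawn. The 8 sarcomere genes drawn, which were chosen with these values known, lie on both sides of 0, as do the thick and thin filament lists, whereas all 10 smooth muscle genes lie above 0.

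Smooth muscle and transcription factor lists were counted beside them. All 10 smooth muscle contractile genes were higher in PVASCs and in Ab-ASCs than in Sub-ASCs, where 34.7% and 37.0% of all tested genes were. The median log2 fold changes of the 10 were 4.93 and 5.62, and 9 of the 10 were lower in PVASCs than in Ab-ASCs (32.1%). Cnn1 (calponin) had 2 to 9 reads in Sub-ASCs, 4062 to 4250 in Ab-ASCs and 3822 to 4263 in PVASCs. The order of Acta1 and of its smooth muscle relative Acta2 was the same over the groups, with Acta2 at 4436 ± 537 CPM in Ab-ASCs, 2505 ± 80.3 CPM in PVASCs and 52.7 ± 2.91 CPM in Sub-ASCs (SD, n = 3). Whether the level of Acta1 is tied to that of the smooth muscle genes was not tested. Srf itself was at 153 ± 8.78 CPM in Ab-ASCs, 93.0 ± 1.06 CPM in PVASCs and 36.0 ± 0.886 CPM in Sub-ASCs, and its cofactor Mkl1 at 141 ± 4.12, 81.9 ± 2.77 and 36.0 ± 1.26 CPM, with each pair of groups called. Tead1 and Tead4 were higher in Ab-ASCs and PVASCs than in Sub-ASCs. Tead1 was at 365 ± 39.5 CPM and 388 ± 2.44 CPM against 156 ± 8.31 CPM. Mef2d and Mkl2 were lower in both than in Sub-ASCs.

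The defining regulators of skeletal muscle reported here were at or near 0. Pax7, Myf5, Myf6 and Mymx had 0 reads in all 9 libraries. The myogenic factor Myog had 8, 4 and 9 reads in Sub-ASCs and the fusion gene Mymk 4, 8 and 5, while both had 0 reads in all Ab-ASC and PVASC libraries. Myod1 had 2, 3 and 3 reads in Sub-ASCs and 1 read in all other libraries together. The Sub-ASC libraries also held most of the reads of Myl1, Tnnt3, Tnni3 and Myh3. Tnni3 and Tnnt3 were not confined to them, with 20 and 11 reads in Ab-ASCs and 22 and 15 in PVASCs. Whether a few muscle cells in the Sub-ASC cultures gave these reads was not tested.

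**Figure D4:**
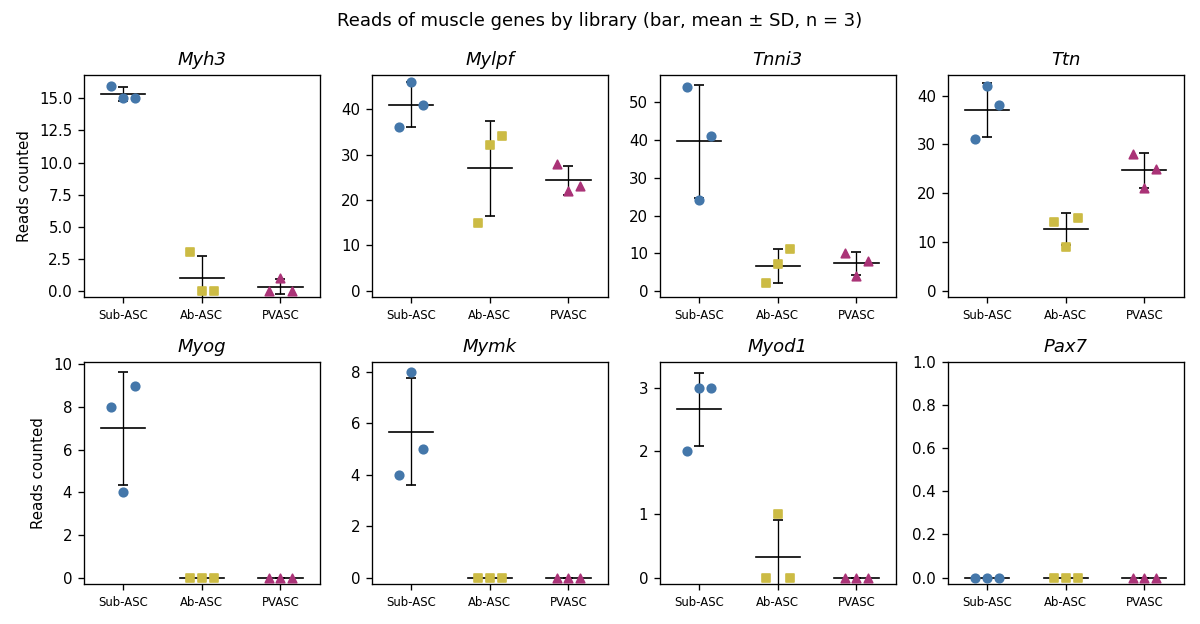
Reads counted (y axis, from 0 and with its own scale in each panel) for 8 muscle genes in the 3 libraries of each group (x axis); points are libraries, lines are means and bars are SD over 3 libraries. Myh3, Tnni3, Myog, Mymk and Myod1 have most or all of their reads in Sub-ASCs, Myog with 4 to 9 reads there and 0 elsewhere, and Pax7 has 0 reads in all libraries.

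Cardiac regulators gave another order. Of 12 genes, 7 were tested. In PVASCs against Sub-ASCs, 5 were higher and 1 lower, where 34.7% and 35.7% of all tested genes were. In PVASCs against Ab-ASCs the counts were again 5 and 1 (24.7% and 32.1% of all tested genes). In Ab-ASCs against Sub-ASCs they were 4 and 2 (37.0% and 38.3%). The list was chosen with earlier results of these data known, so nothing is read from the counts. Tbx20, the T-box factor that the study followed, had 394, 351 and 361 reads in PVASCs and 0 in all other libraries. Gata4, a cardiac and mesodermal factor, was at 11.8 ± 0.758 CPM in PVASCs, 1.64 ± 0.113 CPM in Ab-ASCs and 0.0143 ± 0.0248 CPM in Sub-ASCs (SD, n = 3). Gata6, a relative of Gata4, was at 32.0 ± 0.891 CPM in Sub-ASCs, 48.1 ± 1.82 CPM in Ab-ASCs and 36.7 ± 0.936 CPM in PVASCs. The cardiac and forelimb factor Tbx5 was highest in Sub-ASCs at 14.8 ± 1.04 CPM, with 3.45 ± 0.261 CPM in PVASCs and 0 reads in all Ab-ASC libraries. Mef2c was at 13.2 ± 0.442 CPM in Sub-ASCs and 11.8 ± 0.377 CPM in PVASCs, a pair that was not called, against 1.66 ± 0.600 CPM in Ab-ASCs. Nppb, the brain natriuretic peptide gene, had 22 to 32 reads in each Ab-ASC and PVASC library, against 3, 0 and 0 in Sub-ASCs. Nkx2-5 and Nppa, which define cardiac muscle cells, had at most 3 reads in any library.

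In excitation-contraction coupling, 7 of 14 genes were tested. In PVASCs 4 were higher and 1 lower than in Sub-ASCs (34.7% and 35.7% of all tested genes). The gene called lower was Atp2a2, a calcium pump of the endoplasmic and sarcoplasmic reticulum, at 594 ± 6.00 CPM in Sub-ASCs, 831 ± 29.1 CPM in Ab-ASCs and 501 ± 10.4 CPM in PVASCs. Jph2, which holds the sarcoplasmic reticulum to the surface membrane in heart and smooth muscle, was at 2.06 ± 0.436 CPM in Sub-ASCs, 85.8 ± 2.91 CPM in Ab-ASCs and 48.5 ± 1.03 CPM in PVASCs (SD, n = 3). Of the muscle forms, Sln, Cacna1s, Trdn and Pln had at most 2 reads in any library, while Ryr1, Casq1 and Casq2 had up to 16, 17 and 11. Atp2a1, the calcium pump of fast skeletal muscle, had 8, 19 and 16 reads in Sub-ASCs, 0, 4 and 2 in Ab-ASCs and 4, 6 and 3 in PVASCs. In Ab-ASCs 6 of the 7 genes were higher than in Sub-ASCs and 0 lower (37.0% and 38.3% of all tested genes). However, the calls of Ryr1, the skeletal muscle ryanodine receptor, and of Chrna1, the muscle acetylcholine receptor α-subunit, were lost when single libraries were left out.

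The genes with profiles most like those of the 4 sarcomere genes with the highest mean CPM were found by the Euclidean distance between log2 CPM over the 9 libraries, each centred on its own mean, among the genes kept by the filter. For Acta1 they were Unc5b (distance 0.446), a netrin receptor, and Plk1 (0.473) and Aurka (0.474), both mitotic kinases. For Myl4 they were Fbxl16 (0.276), Fchsd1 (0.325) and Zfp526 (0.364). For Tnnc1, the pseudogene Gm13736 (0.645), Snai1 (0.667) and Gm45546 (0.686) came nearest, and for Tnnt2, Meox1 (0.894), Gtse1 (0.909) and Ttc9 (1.03). None of these 12 genes is in the lists above. The distance describes 9 libraries in 3 groups and was not tested.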

How the data were processed

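The mRNA of cultured ASCs was sequenced in 9 libraries by the authors, who deposited raw counts of reads per gene and library without normalization. The submitters' processing notes name CASAVA 1.8, Bowtie 0.12.2, featureCounts 1.5.0-p3 and the builds mm8 and mm10 without their roles. The positions of all 10 genes equal those of GENCODE M21 on GRCm38. The deposited gene length was used for FPKM, which was calculated here from counts and library totals. Library preparation used a NEBNext Ultra kit, and the use of strand is not given in the sources used here. Reads counted per library were 23781019 to 26872579 in Sub-ASCs, 20524173 to 23832828 in Ab-ASCs and 27136829 to 29881036 in PVASCs. Samples were grouped by the labelled tissue.

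Counts were filtered by filterByExpr, scaled by TMM and fitted for all 9 libraries without covariates by edgeR 4.0.16 (limma 3.58.1, R 4.3.3). The quasi-likelihood test with Benjamini-Hochberg adjustment over 16526 genes was used at 0.05, after the procedure had been tested on simulated data. Means are given with SDs over 3 libraries. Ratios of summed counts and lower bounds use library totals without TMM, and the ratios have exact 95% intervals. CPM values are scaled by TMM. Promoter sequences are from RefSeq, and shared 50-base runs were counted in GENCODE M21 transcripts.

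The 10 genes and all lists were chosen with earlier results of these data known. The 10 genes entered the fit with all others, and no test of them is reported. Part of the list of skeletal muscle regulators is not reported here. Genes were named from the up to 4 called genes with the highest mean CPM per list and pair of groups, not all of which are named, plus defining markers. Actn3, Atp2a1, Casq1, Casq2, Cnn1, Ldb3, Mkl2, Myh1, Myh2, Myh10, Myl12b, Nebl, Nppb, Ryr1 and Tnni3 fall outside this rule and were named after their values were seen. Results were recomputed with DESeq2 1.42.0, with RLE size factors, unfiltered, with a minimum of 10 reads in each library, fitting only the groups of a pair, with the replicate number as a block, with a log2 fold change cutoff of 1, and without each library in turn.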

Additional observations from a re-analysis of the deposited data

How the results depend on the processing

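Of the numbers of other sarcomere genes called under the alternatives, 91 were within 1.5 times of those reported and 5 were not. In PVASCs against Sub-ASCs, the 5 genes called lower became 1 when at least 10 reads were required in every library and 8 without a low-count filter. In Ab-ASCs against Sub-ASCs, the 5 called lower became 1 and 8 under the same alternatives. In PVASCs against Ab-ASCs, the 9 called lower became 4 when the log2 fold change had also to reach 1 in size. A filter on every library removes genes that are low in one group, and without a filter more genes are tested. Leaving out each library in turn gave, for PVASCs against Sub-ASCs, 12 to 13 genes called higher and 5 called lower, 5 to 7 higher and 7 to 9 lower for PVASCs against Ab-ASCs, and 12 to 13 higher and 5 to 6 lower for Ab-ASCs against Sub-ASCs. DESeq2 gave 13 and 6, 5 and 7, and 13 and 7. The replicate block gave 12 and 5, 6 and 8, and 13 and 5. Same-numbered libraries deviated together with correlations of 0.0226 to 0.0309, -0.0259 to -0.00871 and -0.0514 to 0.0950 in these pairs, so the numbers were not taken to pair the samples.

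No direction of a called gene reversed among those recomputed, which leave out Actn3 and Ldb3. Of the fitted log2 differences under alternatives of the 9 genes that have one, 361 moved by less than the spread between libraries and 20 by more, all of them for Tnnt3, Myl1 or Myl7, which have few or no reads in 2 of the groups. For the other genes named, again without Actn3 and Ldb3, 3070 values kept their call, 45 lost it and 7 gained one. Of the 10 genes, 6 had at most 40 reads in any library. For Tnnt1, counting error alone left the ratio of PVASCs to Sub-ASCs between 0.969 and 2.93.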

Other observations

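Most non-muscle forms of the same proteins were more abundant than the sarcomere genes. The lowest was the light chain gene Myl12b, at 1.58 ± 0.156 FPKM in Sub-ASCs, 1.13 ± 0.0182 FPKM in Ab-ASCs and 2.09 ± 0.258 FPKM in PVASCs (SD, n = 3). Of 10 cytoskeletal genes, 9 were higher in PVASCs than in Sub-ASCs (34.7% of all tested genes), with 1 not called. In Ab-ASCs against Sub-ASCs, 9 were higher and 1 lower (37.0% and 38.3%). Both times Myl12b was the 1. Its lower call was lost without Ab-ASC replicate 2 or without Sub-ASC replicate 1 or 3. Actb, cytoplasmic β-actin, was at 748 ± 20.4 CPM in Sub-ASCs, 5098 ± 278 CPM in Ab-ASCs and 3145 ± 91.1 CPM in PVASCs (SD, n = 3). Myh9, a non-muscle myosin heavy chain, was at 726 ± 9.47, 2994 ± 57.3 and 2107 ± 16.7 CPM. Against Ab-ASCs, 8 of the 10 were lower in PVASCs and 2 higher (32.1% and 24.7% of all tested genes). Among the 2 was Myh10 at 200 ± 4.72 CPM against 153 ± 10.6 CPM.

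Muscle metabolism genes were mostly silent. Of 8 genes, 3 passed the filter, while Ckm, the muscle creatine kinase, had 1 read in all libraries together and Mb, myoglobin, 1, 2 and 5 reads in Sub-ASCs and 0 elsewhere. Eno3, the muscle enolase, was at 2.75 ± 0.107 FPKM in Sub-ASCs, 9.47 ± 0.333 FPKM in Ab-ASCs and 16.3 ± 0.262 FPKM in PVASCs (SD, n = 3), and each pair of groups differed by edgeR's quasi-likelihood test (adjusted p of at most 3.5e-05). Cox7a1, a muscle and heart subunit of cytochrome oxidase, fell from 1.36 ± 0.657 CPM in Sub-ASCs to 0.416 ± 0.255 CPM in PVASCs (adjusted p = 0.0054).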
